A study of Homo sapiens with 2 samples.

Results

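The RNAs described here come from 10 genes that carry small nucleolar RNAs (snoRNAs) in their introns, SNHG1, SNHG3, SNHG5, SNHG6, SNHG7, SNHG8, SNHG12, SNHG15, SNHG16 and GAS5, which were taken by name from the 18781 genes of the deposited table. They were measured by RNA-seq in RNA precipitated from lysates of wild-type T47D cells, a luminal breast cancer line, with an antibody against the RNA-binding protein IMP1 or with normal IgG as the control. Each precipitate gave 1 library, so that no difference has a replicate check and no p-value was computed. Values are FPKM, fragments scaled by transcript length and library size, which puts genes on 1 scale per length, although the transcript length used for each gene is not given in the sources used here, and a value of 1e-05 stands for 0 in the table.

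A snoRNA host gene makes a transcript whose introns hold snoRNAs. After splicing, the snoRNAs are cut out of the introns and guide chemical changes of ribosomal and other RNAs, box C/D snoRNAs (SNORD) ribose methylation and box H/ACA snoRNAs (SNORA) pseudouridylation. The spliced host RNA reaches the cytoplasm, where ribosomes often engage it and nonsense-mediated decay removes it, and several hosts share with ribosomal protein mRNAs a start rich in pyrimidines, the terminal oligopyrimidine tract, which links their fate to growth signals. IMP1 is a mostly cytoplasmic protein that binds mRNAs and some long non-coding RNAs and affects their place and stability. The study asked which long non-coding RNAs were in the IMP1 precipitate and went on with SNHG15, which is therefore compared with the other hosts. It listed SNHG15 among these RNAs from the same 2 libraries, so the values of SNHG15 here are not independent of that choice. The study also tested the binding of SNHG15 to IMP1 by precipitation and RT-qPCR in another breast cancer line.

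The starts of the hosts are shown because a pyrimidine tract at the start is known for several of them. RefSeq starts on GRCh38.p14 were matched for 8 of the 10 genes, and SNHG6 and SNHG15 were not matched. Each run below holds 20 bases before the annotated start and 30 from it, and capitals mark the longest run of C and T in the last 30 bases.

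SNHG1 (chr11:62855856-62855905, minus strand): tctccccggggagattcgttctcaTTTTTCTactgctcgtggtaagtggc

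SNHG3 (chr1:28505923-28505972, plus strand): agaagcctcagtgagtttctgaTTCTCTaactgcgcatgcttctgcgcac

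SNHG5 (chr6:85678704-85678753, minus strand): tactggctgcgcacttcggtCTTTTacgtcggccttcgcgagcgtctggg

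SNHG7 (chr9:136728155-136728204, minus strand): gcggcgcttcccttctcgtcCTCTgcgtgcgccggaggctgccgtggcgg

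SNHG8 (chr4:118278742-118278791, plus strand): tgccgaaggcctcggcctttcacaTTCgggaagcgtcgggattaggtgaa

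SNHG12 (chr1:28581844-28581893, minus strand): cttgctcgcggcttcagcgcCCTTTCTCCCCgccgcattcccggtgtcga

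SNHG16 (chr17:76557744-76557793, plus strand): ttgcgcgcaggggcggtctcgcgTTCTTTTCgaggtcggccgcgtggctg

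GAS5 (chr1:173869016-173869065, minus strand): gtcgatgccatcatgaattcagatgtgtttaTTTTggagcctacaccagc

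The annotated first base was C in 5 of the 8 genes, against 14.7% of the 35116 starts of the RefSeq table. A C at the start that opened an unbroken run of at least 5 pyrimidines was found in SNHG5 and SNHG12, 2 of the 8 genes, against 4.07% of all starts. The run was longest in SNHG12, with 11 bases, and SNHG12 had the lowest level of all 10 hosts in the IMP1 precipitate. SNHG5, with a run of 5 bases, had the highest. The starts shown for GAS5, SNHG3 and SNHG16 did not begin with C, and a match at an annotated start is a description of these letters only. A single start is shown per gene, while RefSeq lists 12 transcripts for SNHG1 and 50 for GAS5. Other starts of these genes were not examined.

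For SNHG15, the RNA that the study followed, a primer pair and the in situ probes it used are shown instead. Capitals mark where the reverse primer and the second in situ probe share the same 15 bases. The siRNAs against SNHG15 and the primers for its truncated forms are left out.

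SNHG15 forward primer: tctagtcatccaccgccatc

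SNHG15 reverse primer: AGAGAAAACGCAGGCctagt

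SNHG15 probe 1: gtctctgcaacgtgatttac

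SNHG15 probe 2: ggttcAGAGAAAACGCAGGC

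The RNA-seq values of the libraries do not depend on these oligonucleotides. The PCR and the probe thus read one stretch of SNHG15 in common, while FPKM averages over the whole transcript.

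The libraries themselves differed before any host was compared. Over all genes FPKM added up to 353885 with the IMP1 antibody and to 1.29836e+06 with IgG, mitochondrially encoded genes took 48.4% and 59.9% of these sums, and 17579 and 11511 genes were above 0. Of the genes above 0, 346 with the IMP1 antibody and 228 with IgG had values below 1e-05, which were kept as above 0. The depth of each library is unknown. Markers of luminal breast epithelium were present in both, with sums of 1203 FPKM in the IMP1 precipitate and 555 FPKM in that of IgG over 10 genes, of which TFF1 was listed at 0 with IgG. All 10 mesenchymal markers were higher with IgG, where they summed to 229 FPKM against 2.61 FPKM in the IMP1 precipitate, and DCN, LUM, ZEB2, COL1A2, SPARC and PDGFRB were listed at 0 in the latter. Of 6 blood cell markers, 4 were matched, and CD74 and HLA-DRA made up nearly all of their sum of 322 FPKM with IgG, against 7.17 FPKM in the IMP1 precipitate. The part of these differences in the values of the hosts was not tested. Both libraries are labelled as precipitates from T47D, a single luminal line and not a mix of cell types. Where the RNA of the mesenchymal markers, CD74 and HLA-DRA with IgG came from was not tested.

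SNHG15 was the only host listed at 0 in the IgG library. Its level was 7.21 FPKM in the IMP1 precipitate, and no fold can be given against a value listed at 0. The other 9 hosts were above 0 in both libraries, and 7 of them had a lower FPKM in the IMP1 precipitate than with IgG on the deposited scale, SNHG5 only there and SNHG6 and SNHG7 in all but 1 of the 4 scalings described next. The exceptions were SNHG16 and SNHG8, which were 1.52-fold and 1.46-fold higher in the IMP1 precipitate.

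**Figure D1:**
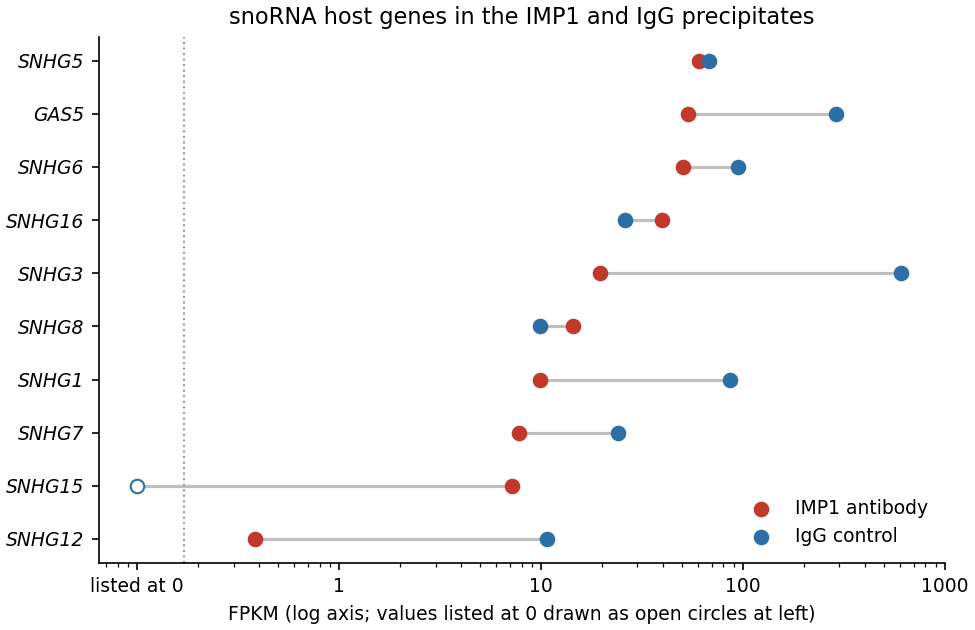
FPKM of the 10 snoRNA host genes (log axis) in the library of the IMP1 antibody (red) and of the IgG control (blue), 1 library each, in order of the IMP1 value; the line joins both values of a gene. SNHG15 is the only gene with an open circle, drawn apart at the left because its IgG value is listed at 0, and SNHG3 and SNHG12 have the longest lines among the others.

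By the ratio of FPKM + 0.1 between the libraries, 5 of the 10 hosts were at least 2-fold lower in the IMP1 precipitate, which was true of 29.9% of all genes. Only SNHG15 was at least 2-fold higher, and its place there comes from the pseudocount that stands in for 0; 39.9% of all genes were at least 2-fold higher. When only genes above 0 in both libraries were counted, 5 of 9 hosts were lower against 43.8% of genes, and 0 of 9 were at least 2-fold higher against 17.5%. The median log2 ratio of the 9 hosts was -1.61, beside -0.72 over the 10309 genes above 0 in both libraries. The ratio depends on how the libraries are scaled. When the IMP1 values were rescaled to the median gene, a log2 shift of 0.79, 4 hosts were lower and 3 higher, with SNHG8 and SNHG16 joining SNHG15. Rescaled to an equal total over all genes, a shift of 1.88, 3 were lower and 4 higher, and rescaled to an equal total without the 50 highest genes, a shift of 0.57, 5 were lower and 3 higher. These shifts moved the median log2 ratio of all genes, 0.40 on the deposited scale, by 0.56, 1.47 and 0.39, and among all genes past 2-fold the share that was higher went from 57.2% to 69.9%, 83.1% and 66.4%. SNHG1, SNHG3 and SNHG12 were at least 2-fold lower under all 4 scalings.

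**Figure D2:**
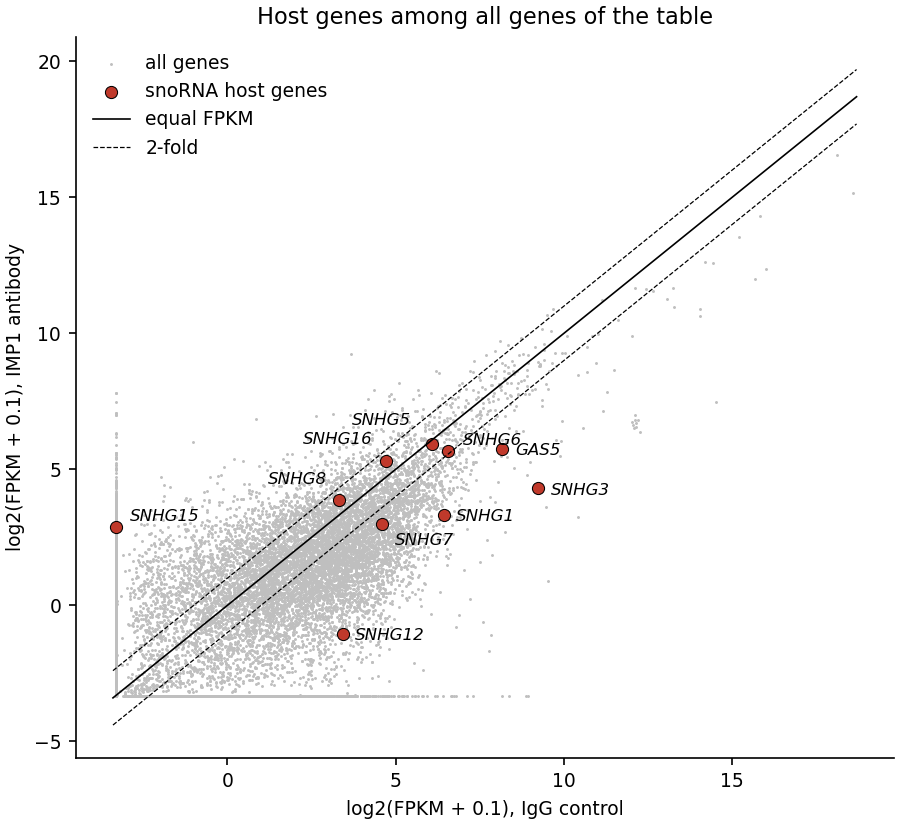
Each grey point is 1 of 18781 genes, with log2(FPKM + 0.1) with IgG on the horizontal axis and in the IMP1 precipitate on the vertical axis, and the 10 hosts are in red. The solid line marks equal values and the dashed lines 2-fold. SNHG15 lies in the column of genes listed at 0 with IgG, and SNHG1, SNHG3, SNHG7, SNHG12 and GAS5 lie under the lower dashed line on the deposited scale, SNHG7 and GAS5 not under every rescaling.

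Among the hosts that carry mainly box C/D snoRNAs, GAS5 was the most abundant with IgG. GAS5 RNA accumulates in cells whose growth is arrested, and RefSeq places 11 snoRNAs in the gene, more than in any other of these hosts. It had 53.7 FPKM in the IMP1 precipitate and 289 FPKM in that of IgG, 5.38-fold more with IgG (log2 ratio of FPKM + 0.1 of -2.43). It was the 404th gene of the IMP1 library by level and the 126th of the IgG library, so that it was among the abundant RNAs of both.

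SNHG1, with 9 RefSeq snoRNAs, had 9.91 FPKM in the IMP1 precipitate and 86.3 FPKM in that of IgG, an 8.71-fold difference (log2 ratio -3.11). Its rank by level was 2214 in the IMP1 precipitate and 370 with IgG. SLC3A2, an amino acid transporter subunit whose locus begins 0.131 kb from that of SNHG1, was at 23.8 and 20.2 FPKM (log2 ratio 0.23). The lower value of SNHG1 was thus not shared by its closest neighbour.

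SNHG5 was the highest of the 10 hosts in the IMP1 precipitate and the one closest to equal levels. It carries SNORD50A and SNORD50B, and it had 60.8 FPKM in the IMP1 precipitate and 67.8 FPKM in that of IgG. Its log2 ratio of -0.16 on the deposited scale was above 0 under every rescaling, from 0.41 to 1.72.

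SNHG6, the host of SNORD87, had 50.7 FPKM in the IMP1 precipitate and 94.0 FPKM in that of IgG. Its log2 ratio was -0.89, close to that of the median gene, and became -0.10 after rescaling to it, and it was above 0 only after rescaling to an equal total over all genes. SNHG16, which holds the 3 SNORD1 genes, had 39.5 FPKM and 25.9 FPKM. It had the highest log2 ratio of the 9 hosts, 0.60, and 17.2% of the 6909 genes at or above 1 FPKM in both libraries had a ratio as high or higher. Within this class of hosts the ratio ran from -3.11 for SNHG1 to 0.60 for SNHG16.

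The hosts of box H/ACA snoRNAs covered a wider range, from -4.93 to 0.54 among those above 0 in both libraries. SNHG3 stood at its lower end. It carries SNORA73A and SNORA73B, snoRNAs that act in the processing of ribosomal RNA, and it had 19.7 FPKM in the IMP1 precipitate and 604 FPKM in that of IgG, 30.7-fold more. SNHG3 was the 70th gene of the IgG library and the 1095th of the IMP1 library. Of the 6909 genes at or above 1 FPKM in both libraries, 32 had a log2 ratio at or below its -4.93, SNHG3 included.

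SNHG12, which holds SNORA16A, SNORA44, SNORA61 and SNORD99, was the lowest host in the IMP1 precipitate. It had 0.382 FPKM there and 10.6 FPKM with IgG, 27.9-fold more (log2 ratio -4.48). Its value was low enough for the pseudocount to count, and the log2 ratio was -3.07 with a pseudocount of 1. Its IgG level was near that of SNHG8, the host of SNORA24, which had 9.89 FPKM with IgG but 14.4 FPKM in the IMP1 precipitate (log2 ratio 0.54). These 2 hosts, side by side in the control, therefore lay far apart in the IMP1 precipitate.

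SNHG7, with SNORA17A and SNORA17B, had 7.80 FPKM in the IMP1 precipitate and 24.1 FPKM in that of IgG. Its log2 ratio of -1.61 was the median of the 9 hosts, and it became -0.82 after rescaling to the median gene and 0.25 after rescaling to an equal total. Its IMP1 level was the one nearest to that of SNHG15.

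SNHG15, the host of SNORA9, was ninth of the 10 hosts by level in the IMP1 precipitate, above SNHG12 only. Its 7.21 FPKM were 2.72-fold below the median of the other hosts, 19.7 FPKM, and 8.44-fold below SNHG5. It made up 2.73% of the summed FPKM of the family there. What set it apart was the IgG library, where the other hosts ran from 9.89 to 604 FPKM with a median of 67.8 FPKM and SNHG15 was listed at 0. The study took SNHG15 from a list drawn from these same libraries, so this difference is no separate evidence for it. With the ratio of SNHG16, the highest of the 9, SNHG15 would have had 4.74 FPKM with IgG, a level that 50.6% of the genes above 0 in that library do not reach, and with the median ratio of the 9 hosts it would have had 22.2 FPKM.

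A value of 0 with IgG was common in the table as a whole. Of all genes 38.7% were listed at 0 with IgG and above 0 in the IMP1 precipitate, against 1 of the 10 hosts, and the table holds 0 genes listed at 0 in both. Most genes listed at 0 with IgG were low in the IMP1 precipitate, with a median of 0.377 FPKM, and SNHG15 was higher than 97.2% of these 7270 genes. It still was not alone, since 203 of them, itself included, had at least its level. Genes near the size and level of SNHG15 were then examined, those alone in a locus of 2 to 8 kb, a span of the genome and not a transcript length, with an IMP1 value within 1.5-fold of it. Of these 127 genes, 30 or 23.6% were listed at 0 with IgG, and those above 0 had a median of 8.16 FPKM there. The lower 5% bound of the values above 0 over all 1389 genes alone in a locus of this size was 0.143 FPKM in the IgG library and 0.0395 FPKM for IMP1. The FPKM totals of the libraries also differ, by a factor of 3.67, and both libraries hold values above 0 but below 1e-05. The bounds thus do not show a higher detection floor with IgG. For SNHG12, the other host with a low value, 64.4% of the genes at its IMP1 level were listed at 0 with IgG, and it was not.

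The make-up of the family changed between the precipitates. The 10 hosts summed to 264 FPKM in the IMP1 precipitate and to 1211 FPKM with IgG, a log2 ratio of -2.20, and they took 0.0746% and 0.0933% of the FPKM of their libraries. Without the mitochondrially encoded genes these shares were 0.145% and 0.232%. SNHG3 alone was 49.8% of the family with IgG and 7.44% in the IMP1 precipitate, and without it the log2 ratio of the sums was -1.31. SNHG5 went the other way, with 23.0% of the family in the IMP1 precipitate and 5.60% with IgG, as did SNHG6 with 19.2% and 7.76% and SNHG16 with 14.9% and 2.14%. GAS5 held similar shares, 20.3% and 23.8%. These shares do not depend on the scale of either library, but they depend on each other, so a smaller share of SNHG3 raises the rest. On the deposited scale the FPKM of SNHG5 and SNHG6 were lower in the IMP1 precipitate than with IgG.

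**Figure D3:**
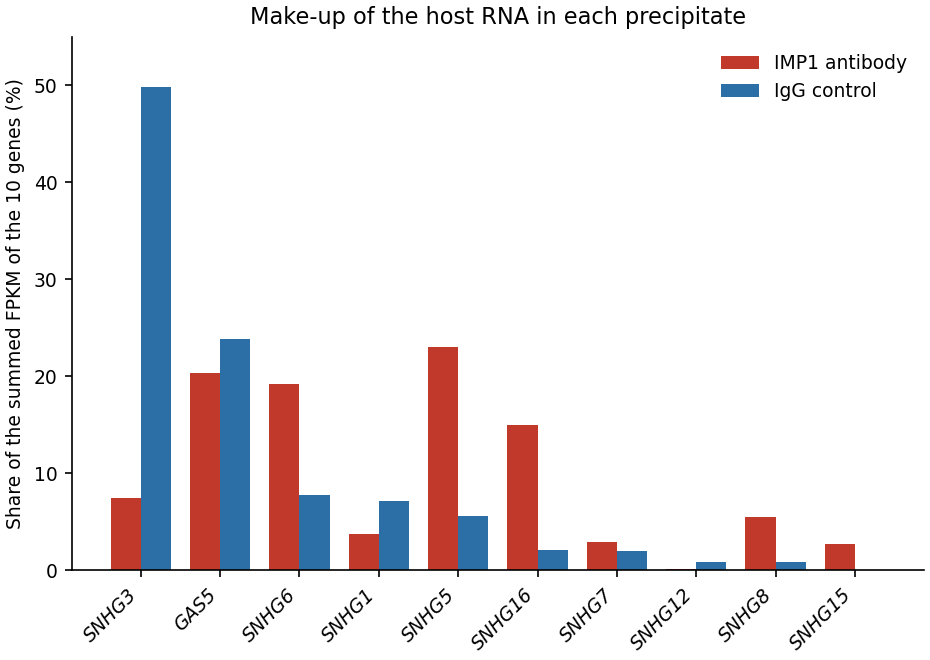
Share of each host in the summed FPKM of the 10 genes, in percent, in the IMP1 precipitate (red) and the IgG library (blue), in order of the IgG share. SNHG3 holds 49.8% with IgG and 7.44% in the IMP1 precipitate, and SNHG5, SNHG6 and SNHG16 hold larger shares in the IMP1 precipitate.

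The table gives 1 locus to all genes that overlap, so its positions, on hg19 per the submitters' processing notes, are those of the shared stretch and not always of the host. SNHG1 (chr11:62619460-62623386), SNHG5 (chr6:86370710-86388451), SNHG6 (chr8:67782984-67838633), SNHG8 (chr4:119199864-119200978) and SNHG15 (chr7:45022622-45026560) were alone in their locus, and all 3 patterns, lower, near equal and listed at 0 with IgG, occurred among them. Alone means that the deposited table lists no other gene with that locus. Genes that it does not list may still overlap, and the locus of SNHG6 spans 55.65 kb. Of the 5 lower hosts, 4 shared a locus, as did 47.5% of all genes, and 1, SNHG1, was alone.

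Most genes that share a locus with a host had another pattern than the host. SNHG3 (chr1:28832455-28865812) lies in the locus of RCC1, which encodes the exchange factor of the GTPase Ran and had 4.21 FPKM in the IMP1 precipitate and 5.56 FPKM in that of IgG. SNORA73B, in an intron of SNHG3, was the only one of the 36 snoRNAs that RefSeq places in the 10 hosts that was matched in the table. It was at 44.4 and 278 FPKM (log2 ratio -2.64), lower in the IMP1 precipitate as its host was. Whether reads of the snoRNA add to the value of SNHG3 was not tested.

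SNHG12 (chr1:28879597-28909495) shares its locus with TRNAU1AP, a factor in selenocysteine tRNA use. TRNAU1AP had 2.48 FPKM in the IMP1 precipitate and was listed at 0 with IgG, the opposite of SNHG12. How the authors' software divided reads between such overlapping genes is not given in the sources used here. The loci of SNHG3 and SNHG12, the 2 hosts with the lowest ratios, lie 13.8 kb apart. TAF12, a transcription factor subunit on the far side of SNHG12, had 3.16 FPKM and 17.4 FPKM (log2 ratio -2.42), and PHACTR4, on the far side of SNHG3, had 1.48 FPKM and 1.73 FPKM.

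GAS5 (chr1:173832386-173872687) overlaps ZBTB37, with 0.993 and 0.484 FPKM in the IMP1 and IgG precipitates, and GAS5-AS1, with 0.50 FPKM in the IMP1 precipitate and listed at 0 with IgG. SNHG7 (chr9:139607022-139622636) overlaps FAM69B, which had 0.178 FPKM and was listed at 0 with IgG. SNHG16 (chr17:74553848-74583038) overlaps ST6GALNAC2, a sialyltransferase gene with 11.8 and 4.64 FPKM. Of the 7 genes that share a locus with a host, the IMP1 value was, with 0.1 FPKM added to each, 2-fold or more above that of IgG in 4 and 2-fold or more below it in 1, SNORA73B, beside 39.9% and 29.9% of all genes. Of the 4, FAM69B, TRNAU1AP and GAS5-AS1 are listed at 0 with IgG and pass through the 0.1 FPKM added. ZBTB37 is within 2-fold on this scale only because of the 0.1 FPKM added (log2 ratio 0.90). Strand was not stated for these values, so that reads of GAS5 and its antisense gene may not be told apart.

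Around SNHG15, CCM2, a gene of vascular signalling 12.5 kb away, had 5.78 FPKM in the IMP1 precipitate and 0.124 FPKM in that of IgG (log2 ratio 4.72). MYO1G on the other side, an unconventional myosin, was listed at 0 in the IMP1 precipitate and had 0.129 FPKM with IgG. Of the 20 genes nearest to the 10 hosts on either side, 8 were at least 2-fold lower in the IMP1 precipitate, against 29.9% of all genes, and 4 at least 2-fold higher, against 39.9%. The 8 include SNHG12, itself a host, as the neighbour of SNHG3, and SNORA73B, already counted among the genes in the locus of SNHG3. They also include MYO1G, which passes through the 0.1 FPKM added. Of the 4, NT5C3AP1, RP11-666A8.7 and SERPINC1 are listed at 0 with IgG and pass in the same way.

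RefSeq classes all 10 genes as lncRNA and places between 1 and 11 snoRNAs in each. The 3 hosts with 4 or more snoRNAs, GAS5, SNHG1 and SNHG12, were all at least 2-fold lower in the IMP1 precipitate on the deposited scale, as were 43.8% of genes above 0 in both libraries. None of the 3 hosts with 1 snoRNA, SNHG6, SNHG8 and SNHG15, was at least 2-fold lower, and of the 4 hosts with 2 or 3, SNHG3 and SNHG7 were. With so few hosts in each, nothing is read from these counts against that share. This grouping was made after the values were seen, and over the 9 hosts above 0 in both libraries the Spearman correlation of snoRNA number with the log2 ratio was -0.41. The points share the same 2 libraries. Levels in the IMP1 precipitate had a Spearman correlation of 0.64 with those in the IgG library over the 10 hosts.

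Other host genes were compared as lists. Of 22 other non-coding hosts sought, 10 were matched, and 5 of these were at least 2-fold lower in the IMP1 precipitate, against 29.9% of all genes, and 2 higher, against 39.9%. ZFAS1 had 38.9 and 168 FPKM in the IMP1 and IgG precipitates and SNHG14 had 3.35 and 19.3 FPKM. DANCR, with 21.8 and 7.59 FPKM, had the highest ratio among those above 0 in both libraries, followed by SNHG11, with 3.33 and 3.91 FPKM. SNHG10 was, like SNHG15, listed at 0 with IgG, but at 0.701 FPKM in the IMP1 precipitate, and SNHG9 was the reverse, listed at 0 in the IMP1 precipitate and at 10.3 FPKM with IgG. A host listed at 0 in 1 library was therefore seen in both directions.

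The 24 ribosomal protein mRNAs that carry snoRNAs lay near equal levels, with a median log2 ratio of -0.09. Of these, 20 were within 2-fold, 2 were lower and 2 higher. Of the genes above 0 in both libraries, 43.8% were at least 2-fold lower and 17.5% at least 2-fold higher, and 5683 of all 18781 genes were within 2-fold. Among the 24, RPL3 had the highest ratio, with 208 and 28.0 FPKM, followed by RPL30 with 653 and 249 FPKM. RPS12, with 89.5 and 197 FPKM, and RPL21, with 169 and 340 FPKM, had the lowest. Of 23 other coding hosts, 10 were at least 2-fold lower and 3 higher, beside 43.8% and 17.5% of the genes above 0 in both libraries and 29.9% and 39.9% of all genes, with a median log2 ratio of -0.98 over the 21 above 0 in both libraries. HSPA9, a mitochondrial chaperone, had 15.5 and 122 FPKM and RABGGTB had 7.71 and 45.4 FPKM. EEF2, the translocation factor of the ribosome, was highest among those above 0 in both libraries with 388 and 74.0 FPKM, then GNB2L1 with 506 and 355 FPKM, and DKC1 and PPAN, at 3.22 and 3.86 FPKM in the IMP1 precipitate, were listed at 0 with IgG. Being listed at 0 with IgG was thus not particular to SNHG15 among hosts. The SNHG and GAS5 median of -1.61 was below those of all 3 other lists of hosts, and with 1 library each these differences have no test.

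The proteins that bind snoRNAs and the factors of nonsense-mediated decay were set beside the hosts. Of the 8 snoRNP proteins, 5 were within 2-fold, GAR1 was lower with 2.14 and 10.4 FPKM, and FBL, the methyltransferase of box C/D snoRNPs, was higher with 26.6 and 13.0 FPKM. DKC1, the pseudouridine synthase of box H/ACA snoRNPs, was the other higher gene of this list. It is listed at 0 with IgG and passes through the 0.1 FPKM added. Of all 18781 genes, 5683 were within 2-fold, 29.9% were at least 2-fold lower and 39.9% at least 2-fold higher. NOP58 had 6.21 and 11.4 FPKM, and NHP2L1 had 18.9 and 9.60 FPKM. Of the 10 decay factors, 5 were at least 2-fold lower and 2, SMG9 and UPF3B, higher, beside 29.9% and 39.9% of all genes. The latter were listed at 0 with IgG, with 1.38 and 0.222 FPKM in the IMP1 precipitate. SMG8 had 1.47 and 17.8 FPKM and SMG1, the kinase of the pathway, had 1.46 and 12.4 FPKM, while SMG5, with 3.15 and 5.35 FPKM, was within 2-fold. The median of the 8 decay factors above 0 in both libraries was -1.76. After rescaling to an equal total over all genes the medians of every list of hosts, of the snoRNP proteins and of the decay factors were above 0, and after rescaling to the median gene those of the ribosomal protein hosts and the snoRNP proteins were.

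**Figure D4:**
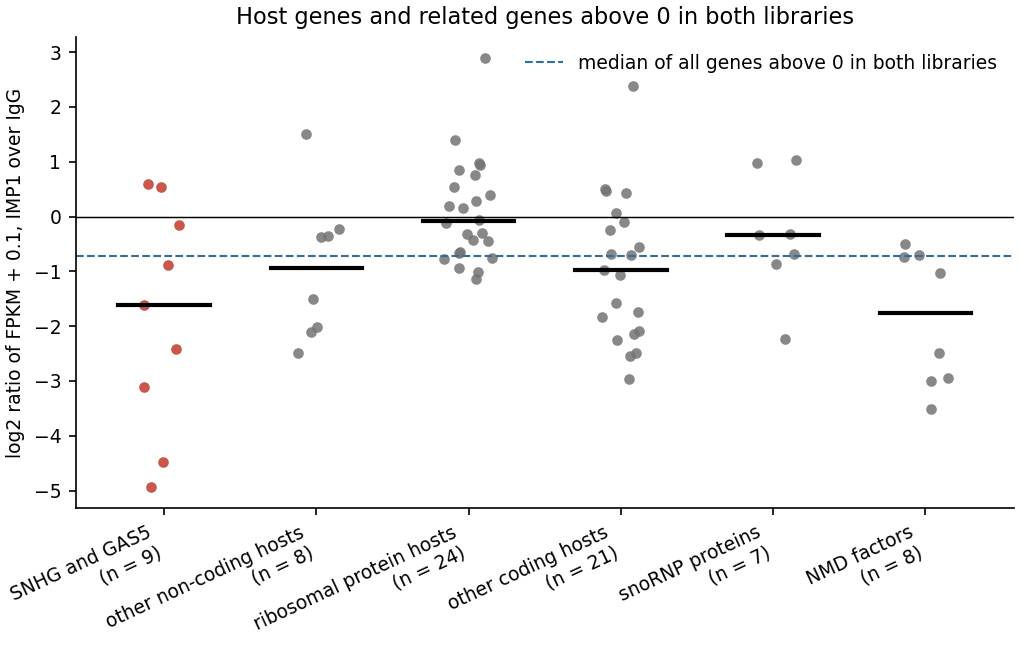
Log2 ratio of FPKM + 0.1 (IMP1 over IgG) for each gene above 0 in both, by list; black bars are medians and the dashed line is the median of all such genes, -0.72. The 9 SNHG and GAS5 genes (red) run from -4.93 to 0.60, while the 24 ribosomal protein hosts gather around 0 on the deposited scale shown here, and a rescaling moves all lists up together.

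Each rescaling multiplies all IMP1 values by 1 factor, which fixes the order of the hosts by ratio but for the 0.1 FPKM added, and moves the line between lower and higher hosts. After rescaling to the median gene, with 0.1 added as before, the log2 ratio was 1.40 for SNHG16, 1.33 for SNHG8, 0.64 for SNHG5 and -0.10 for SNHG6, and SNHG7, GAS5, SNHG1, SNHG12 and SNHG3 followed at -0.82, -1.63, -2.32, -3.82 and -4.14. SNHG15 has no place in this order because its ratio has no measured value.

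**Figure D5:**
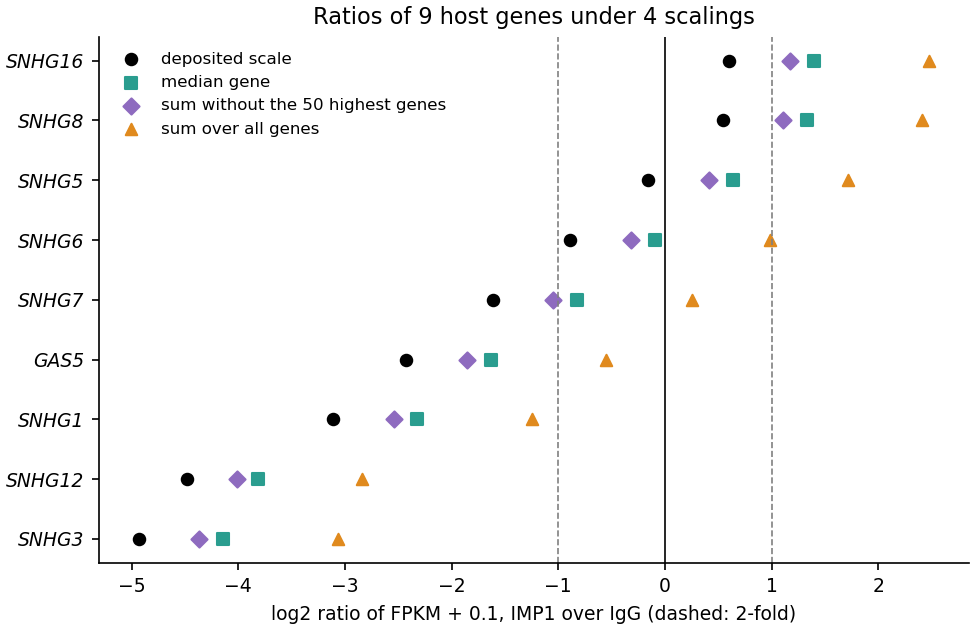
Log2 ratio of FPKM + 0.1 (IMP1 over IgG) of the 9 hosts above 0 in both libraries, on the deposited scale and after 3 rescalings of the IMP1 values. Each rescaling shifts all genes by nearly the same amount, SNHG7 lies above 0 only after rescaling to an equal total over all genes (0.25), and SNHG1, SNHG3 and SNHG12 stay left of the dashed line of -1.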

How the data were processed

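The authors deposited FPKM values for 18781 genes in 2 libraries, 1 per precipitate, and wrote exact zeros as 1e-05. The submitters' processing notes name hg19 as the build, and the aligner, quantifier, annotation and strand setting are not given in the sources used here. Locus starts in the table count from 0, so 1 was added. The authors' fold changes, p-values and q-values, and their lists of changed genes, were not used.

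The 10 members and all gene lists were chosen with earlier results of these data known. Ratios are log2 of IMP1 over IgG values after 0.1 was added to each FPKM, which makes differences of low genes smaller, and a 2-fold threshold was used. No fold is given against a value listed at 0. With 1 library per group no test was run. Named genes are the 10 members, the 2 highest and 2 lowest ratios of each list among genes at or above 1 FPKM in both libraries, list genes at 0 in a library where 4 or fewer, genes in the same locus and nearest neighbours, of which those that bear on a host are given. A few others were chosen after their values were seen. One gene that this rule names is not reported here. Start sequences, gene classes and the snoRNAs inside each host come from RefSeq on GRCh38.p14, from which no position was used with the hg19 loci. The counting was tested on simulated data. Python 3.11.15, numpy 2.4.6, pandas 2.3.3 and matplotlib 3.10.9 were used.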

Additional observations from a re-analysis of the deposited data

How the results depend on the processing

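No paired analysis was possible because each precipitate gave 1 library and no test was run, and for the same reason no replicate could be left out. Depth is unknown, so that the level a listed 0 allows cannot be stated. The 5 hosts at least 2-fold lower became 3 after rescaling to an equal total over all genes, and 1 among hosts alone in their locus, an alternative chosen after seeing the data that leaves 5 genes. The single higher host became 3 after rescaling to the median gene or to an equal total without the 50 highest genes, 4 after rescaling to an equal total, 2 at a threshold of 1.5-fold and 0 among hosts above 0 in both libraries, which leaves SNHG15 out. The median log2 ratio of -1.61 became -1.51 with a pseudocount of 1, -1.62 with 0.01, -0.82 after rescaling to the median gene, -1.05 without the 50 highest genes, -0.52 among hosts alone in their locus and 0.25 after rescaling to an equal total. SNHG7, the median host, reversed with it at 0.25, the only change of sign of a host past 2-fold. Of the hosts within 2-fold, SNHG5 went from -0.16 to 0.64, 1.72 and 0.41 after rescaling to the median gene, to an equal total and to an equal total without the 50 highest genes, and SNHG6 from -0.89 to 0.98 after rescaling to an equal total. The log2 ratio of the summed FPKM of -2.20 became -1.40, -0.32 and -1.63 after rescaling to the median gene, an equal total and the total without the 50 highest genes, and -1.31 without SNHG3. The share of SNHG15 in the IMP1 library, 2.73%, was 3.43% without GAS5 and 2.95% without SNHG3. These changes follow from the shift, filter or threshold of each alternative.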
